A study of Mus musculus with 16 samples.

Results

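Cdk8 occupancy was set against RNA polymerase II (Pol II) occupancy in neural progenitor cells that had received a control siRNA. The cells came from V6.5 mouse embryonic stem cells by way of embryoid bodies (4 days). A single library per antibody was compared: Cdk8 after siRNA to luciferase, which is the control siRNA, and Pol II after the same siRNA, both at 72 hours and from chromatin fixed with 1% formaldehyde. Each deposited list holds windows of 50 bp with a signal value. Windows up to 200 bp apart were merged, which gave 5574 Cdk8 regions and 16073 Pol II regions, of 605681 regions over the 9 ChIP lists of the series. A Cdk8 region was placed at Pol II when it shared at least 1 bp with a Pol II region, and away from Pol II otherwise. Lists that served as further readouts were Cdk8, Med26 and Pol II after Cbx3 siRNA, Med26 after control siRNA, and Pol II and Cbx3 (sets 1 and 2) from cells without siRNA. With 1 library per antibody and arm there is no replicate spread and no test. Intervals are at 95% (Wilson for shares, order statistics for medians) and cover counting error only.

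Cdk8 is the cyclin-dependent kinase of the Mediator kinase module, a detachable group of subunits. Mediator carries signals from enhancer-bound transcription factors to Pol II at promoters, and binding of the kinase module to the Mediator core is known to be mutually exclusive with binding of Pol II. Med26 is a subunit of the core that is known to associate with the Pol II-bound form of Mediator and to recruit elongation factors. Cbx3 is the heterochromatin protein HP1 gamma, which also occurs at transcribed genes.

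The lists differed in shape. The Cdk8 list held 9960 windows over 498 kb, and the Pol II list 116001 windows over 5800 kb. The median region was 50 bp for Cdk8 and 300 bp for Pol II. Single windows made up 3534 of the Cdk8 regions (63.4%) and 2463 of the Pol II regions (15.3%), which left 2040 Cdk8 regions of 2 or more windows. Cdk8 signal ran between 6.01 and 425, with a median of 8.01 over regions, and Pol II signal between 6.01 and 158, with a median of 18.0. The scales of the 2 antibodies were not compared, and signal is given below by rank within each list. A single value, 7.05, was the signal of 1078 of the 3534 Cdk8 regions of 1 window (30.5%). That is 5 reads, on the reading that 1 read equals a signal of 1.41, which was inferred from the spacing of the values.

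One Cdk8 region in 5 lay at Pol II, and longer regions did so more often. In all, 1161 of 5574 Cdk8 regions shared sequence with a Pol II region (20.8%, interval 19.8 to 21.9%). The share was 35.3% of the regions of 2 or more windows (721 of 2040, interval 33.3 to 37.4%) and 12.5% of those of 1 window (440 of 3534, interval 11.4 to 13.6%). These intervals are far apart, though the classes also differ in signal, and their shares by signal are given below. By number of windows, 27.7% of the 1281 regions of 2 windows and 50.4% of the 258 regions of 3 windows lay at Pol II. Beyond 3 windows the share did not climb further: it was 49.1% for 4 windows, 44.7% for 5 to 6, 52% for 7 to 9 and 43.2% for 10 or more (19 of 44), with intervals that overlap. Pol II regions together covered 6023 kb, or 0.235% of the span between the first and last Pol II window, summed over chromosomes.

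**Figure D1:**
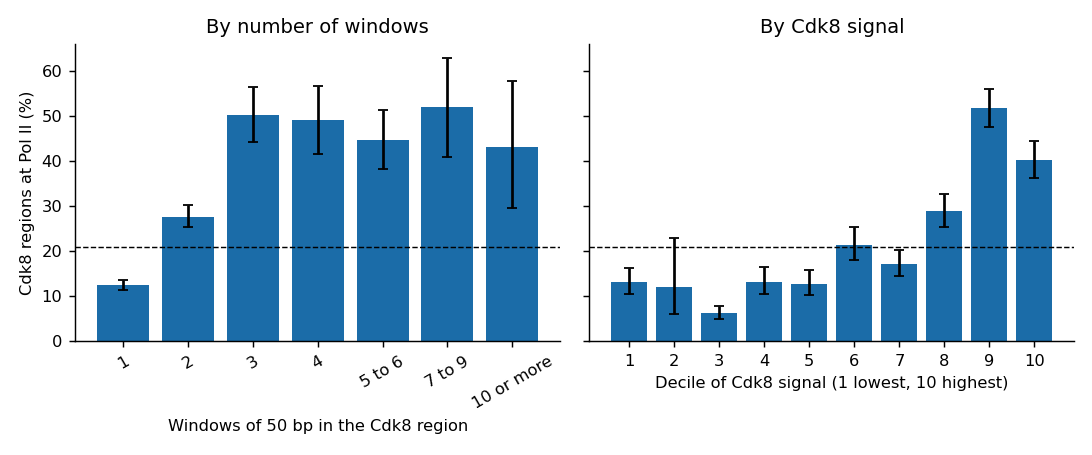
Percentage of Cdk8 regions at Pol II, control siRNA, by number of 50 bp windows in the region (left) and by decile of Cdk8 signal (right); bars are shares, whiskers 95% Wilson intervals, and the dashed line the share of all regions (20.8%). The share stays near 50% above 2 windows, and it is higher in the ninth signal decile (51.8%) than in the tenth (40.3%).

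Signal gave a similar picture with a step back at the top. Tied values stayed in the same decile, so the deciles hold 58 to 1141 regions. In the decile that holds the frequent value 7.05, 71 of 1141 regions lay at Pol II (6.22%). The share was 28.9% in decile 8, 51.8% in decile 9 (268 of 517, interval 47.5 to 56.1%) and 40.3% in decile 10 (225 of 558, interval 36.3 to 44.4%). Split by class, 30.1% of single windows (82 of 272) and 27.9% of regions of 2 or more windows lay at Pol II in decile 8. In decile 9 it was 48.5% of single windows and 52.7% of the longer regions, and intervals overlap in both deciles. In deciles 3 to 7 and in decile 10 the longer regions were higher, with intervals apart. Among regions of 2 or more windows alone, decile 9 again stood above decile 10, with 52.7% (218 of 414, interval 47.8 to 57.4%) and 41.3% (223 of 540, interval 37.2 to 45.5%). The Cdk8 regions of highest signal were thus at Pol II less often than those just below them. The 6 fullest Cdk8 stretches of 1 Mb held 8.19% of the 1319 regions of 2 or more windows away from Pol II. They held 0.832% of the 721 at Pol II. By stretch, the median Cdk8 percentile of their regions of 2 or more windows was between 93.7 and 99.96. The decile shares were not recomputed without these stretches, which are described below.

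The other Mediator subunit gave a different share against the same Pol II list. Of the Med26 regions after control siRNA, 74.9% lay at Pol II (4484 of 5990, interval 73.7 to 75.9%). For regions of 2 or more windows it was 35.3% of Cdk8 regions and 86.9% of Med26 regions, and for 1 window 12.5% of Cdk8 regions and 53.0% of Med26 regions. Cdk8 regions from Cbx3 siRNA cells lay at control Pol II in 22.8% of cases (1387 of 6094, interval 21.7 to 23.8%), against 20.8% of the Cdk8 regions from control siRNA cells. Cbx3 regions were at Pol II in 1.64% of cases in set 1 and 1.53% in set 2.

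Cdk8 regions that did not touch Pol II were mostly over 10 kb from it. Side by side with a Pol II region, with no base between, lay 115 Cdk8 regions (2.06%), and a further 335 (6.01%) were 1 to 1000 bp away. Overlap and the first 1000 bp together took in 28.9% of all Cdk8 regions. That was 47.7% of the regions of 2 or more windows (974 of 2040) and 18.0% of those of 1 window (637 of 3534). Pol II regions with 1000 bp on both sides covered 1.33% of the span. Between 10 and 100 kb from Pol II were 31.8% of Cdk8 regions, and 24.6% were between 100 kb and 1 Mb. Over 1 Mb away were 175 regions (3.14%), and 5 lay on chromosome Y, where no Pol II region was listed.

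The longer regions were also nearer when they were away. The median distance to the nearest Pol II region was 45.1 kb over all 4408 Cdk8 regions away from Pol II on the other chromosomes (interval 41.6 to 48.4 kb). It was 24.4 kb for regions of 2 or more windows (interval 19.6 to 28.3 kb, n = 1318) and 56.4 kb for those of 1 window (interval 51.6 to 61.1 kb, n = 3090). For regions of 2 or more windows in the highest Cdk8 signal decile it was 4.15 kb (interval 2.15 to 6.70 kb, n = 316). So strong Cdk8 away from Pol II was often close to Pol II without touching it. The lower quartile of this distance was 0.15 kb, and such adjoining regions count as away in the comparisons below.

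**Figure D2:**
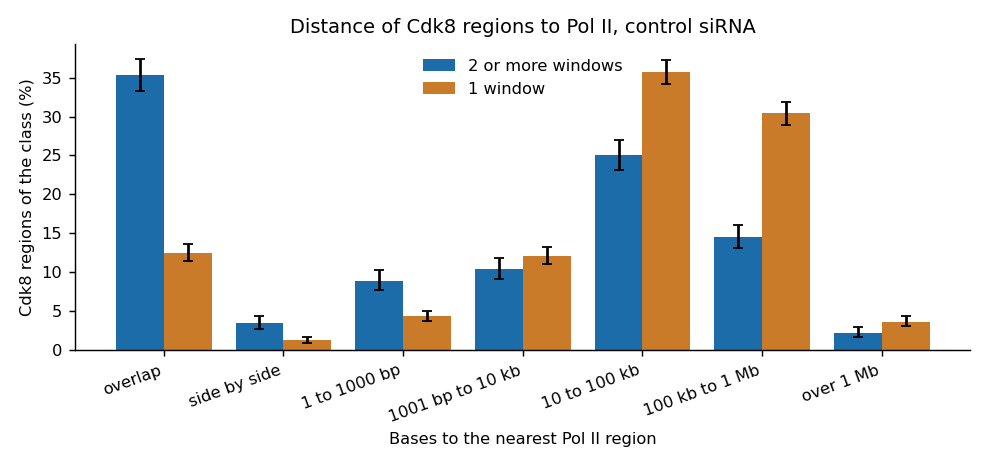
Percentage of Cdk8 regions of 2 or more windows and of 1 window by distance to the nearest Pol II region, control siRNA; bars are shares of each class and whiskers 95% Wilson intervals. Regions of 2 or more windows are more frequent at overlap (35.3%) than single windows (12.5%), and single windows are more frequent from 10 kb to 1 Mb.

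Where the lists met, the median distance between the highest Cdk8 window and the highest Pol II window (the summits) was 150 bp (interval 100 to 150 bp, n = 1161). The overlap that defines these pairs bounds this distance, since the Pol II regions met had a median listed length of 500 bp, so it is a description only. It was at most 100 bp in 47.6% of the pairs, at most 200 bp in 75.7% and at most 500 bp in 95.1%. The summits fell in the same window in 109 pairs (9.39%) and were over 500 bp apart in 57. The Cdk8 summit lay inside the Pol II region in 600 of the 721 regions of 2 or more windows (83.2%), and by construction in all 440 of 1 window. Of all 1040 summits inside, 43.5% were in the middle section when the Pol II region was cut into 3 equal sections, with 28.7% and 27.9% in the outer sections. Coordinates carry no strand, so upstream and downstream sides of genes were not told apart.

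Cdk8 signal and Pol II signal did not follow each other where the lists met. In the 1161 shared regions Spearman's rho between Cdk8 signal and Pol II signal was -0.08, a description over regions of 1 pair of libraries. It was -0.12 in the 721 regions of 2 or more windows and 0.06 in the 440 of 1 window. Pol II under Cdk8 was above the middle of its own list, with a median percentile of 71.5. Its highest decile was met by 228 of the 1161 Cdk8 regions (19.6%), and 246 (21.2%) met Pol II regions below the median. By Cdk8 signal decile, lowest to highest, the median Pol II percentile was 70.6, 68.1, 75.3, 65.7, 72.9, 77.8, 82.1, 74.2, 71.3 and 66.6, with 7 regions in the second decile. It was thus highest in the seventh decile, and the tenth was close to the fourth. The highest Pol II decile was met by 30% of the Cdk8 regions at Pol II in the seventh decile, by 12% in the tenth and by 12.5% in the fourth.

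Seen from Pol II, few regions held Cdk8. Of 16073 Pol II regions, 1147 held a Cdk8 region (7.14%, interval 6.75 to 7.54%), and 724 held one of 2 or more windows (4.50%). Within 1 kb of Cdk8 were 1845 (11.5%). The share grew with Pol II signal, with 0.845% in the lowest decile, 6.29% in the fifth and 14.0% in the highest (225 of 1607, interval 12.4 to 15.8%). Length grew with it. Cdk8 lay at 0.771% of Pol II regions with 50 bp listed, 8.15% of those with 250 to 400 bp and 16.7% of those with over 700 bp. Among Pol II regions of 250 to 400 bp the share was flat over the 4 upper signal deciles, at 9.90%, 9.57%, 9.72% and 9.52%. Among those over 700 bp it was 15.7%, 16.7%, 14.4% and 18.4%, with intervals that overlap.

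**Figure D3:**
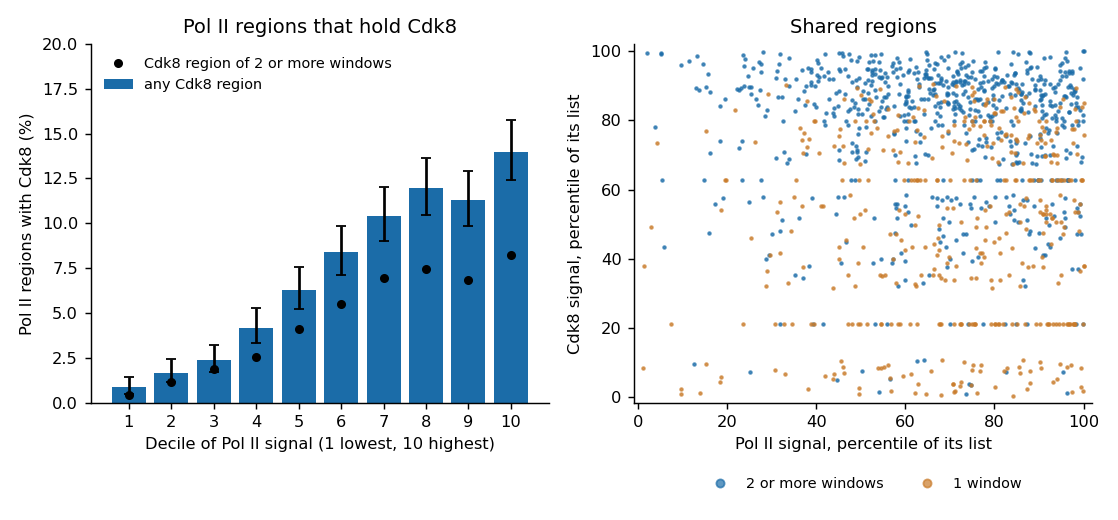
Left, percentage of Pol II regions that hold a Cdk8 region by decile of Pol II signal, with 95% Wilson intervals as whiskers and dots for Cdk8 regions of 2 or more windows. Right, percentile of Cdk8 signal against percentile of Pol II signal in each of the 1161 shared regions; the left panel climbs to 14.0%, while the right panel shows no common order (rho -0.08), and its horizontal lines are tied Cdk8 values.

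Pol II regions that held Cdk8 also held Med26 more often. Longer Pol II regions held Cdk8 more often, and the Med26 shares here were not split by length. Med26 after control siRNA lay at 45.8% of the Pol II regions with Cdk8 (525 of 1147, interval 42.9 to 48.7%) and at 23.9% of those without (3573 of 14926, interval 23.3 to 24.6%). Med26 was listed more often with Cdk8 up to decile 8 of Pol II signal, with overlapping intervals in decile 6, and the gap was small above it. In Pol II deciles 1 to 5, Med26 lay at 16.7% of regions with Cdk8 (interval 12.5 to 21.8%) and 5.71% of regions without (interval 5.22 to 6.25%). In decile 8 these shares were 58.3% with Cdk8 and 42.9% without. In decile 9 they were 56.0% with Cdk8 and 54.5% without. In decile 10 they were 65.3% with Cdk8 (interval 58.9 to 71.2%) and 62.2% without (interval 59.6 to 64.7%), and the intervals overlap. In 381 of the 525 Pol II regions with both subunits the Cdk8 and Med26 regions shared no base, and in 144 (27.4%) they did. How often regions of these lengths would share a base at any position in the Pol II region was not computed. Their summits were a median of 200 bp apart (interval 150 to 200 bp). The Cdk8 summit was a median of 150 bp from the Pol II summit and the Med26 summit 100 bp.

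The Cdk8 regions at and away from Pol II were then followed in the other lists, which had no role in choosing the regions. A minority of the Cdk8 regions from control siRNA cells was listed for Cdk8 after Cbx3 siRNA. It was 28.7% of the regions of 2 or more windows and 1.36% of the single windows. Cdk8 was listed again after Cbx3 siRNA at 24.8% of the regions at Pol II (288 of 1161, interval 22.4 to 27.4%) and at 7.82% of those away (345 of 4413, interval 7.06 to 8.65%), against 11.4% of all Cdk8 regions. Among regions of 2 or more windows the shares were 35.8% at Pol II (258 of 721, interval 32.4 to 39.3%) and 24.8% away (327 of 1319, interval 22.5 to 27.2%). Among single windows they were 6.82% at Pol II (30 of 440) and 0.582% away (18 of 3094). Turned round, 45.5% of the 633 Cdk8 regions found in both arms lay at Pol II, and 17.7% of the 4941 found only with control siRNA. These sets differ in class. For regions of 2 or more windows the shares were 44.1% (of 585) and 31.8% (of 1455). For single windows they were 62.5% (of 48) and 11.8% (of 3486).

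At the top of the Cdk8 list the order was the other way round. The highest signal decile runs from 13.3 to 425, and signal was not matched between places inside it. Over all deciles, the fullest Cdk8 stretches held 103 of the 327 regions of 2 or more windows away from Pol II that were listed again (31.5%). They held 8.19% of all 1319 regions of this class away from Pol II and 0.832% of the 721 at Pol II. Whether the order in the highest decile holds without these stretches was not tested. Of the regions of 2 or more windows in the highest signal decile, 77.1% of those at Pol II were listed again (172 of 223, interval 71.2 to 82.2%) and 88.6% of those away (281 of 317, interval 84.7 to 91.7%). In the ninth decile it was 24.8% at Pol II and 15.3% away, with intervals that overlap. In the eighth it was 15.7% at Pol II (interval 9.61 to 24.7%) and 3.91% away (interval 2.07 to 7.27%). Cdk8 away from Pol II held repeated regions of high signal and a large number of regions of low signal listed once.

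Med26 met Cdk8 almost solely at Pol II. After control siRNA it overlapped 12.9% of the Cdk8 regions at Pol II (150 of 1161, interval 11.1 to 15.0%) and 0.0906% of those away (4 of 4413), against 2.76% of all Cdk8 regions. Among the regions of 2 or more windows it was 13.7% at Pol II (99 of 721) and 0.152% away (2 of 1319). In the highest Cdk8 decile of this class 24 of 223 regions at Pol II held Med26 (10.8%), and 2 of 317 away. Med26 after Cbx3 siRNA, a shorter list, overlapped 27 Cdk8 regions at Pol II and 1 away, against 0.502% of all.

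Pol II after Cbx3 siRNA gave largely the same division, while the shorter untreated Pol II list covered a minority of the Cdk8 regions at control Pol II. Pol II after Cbx3 siRNA overlapped 77.0% of the Cdk8 regions at control Pol II (894 of 1161, interval 74.5 to 79.3%) and 1.93% of those away (85 of 4413), against 17.6% of all. Pol II of untreated cells overlapped 32.8% of the Cdk8 regions at control Pol II (381 of 1161) and 0.113% of those away (5 of 4413), against 6.93% of all. That list has 8183 regions and a higher lowest signal, 9.02. With any of the 3 Pol II lists, 1247 Cdk8 regions lay at Pol II (22.4%), and 366 were at Pol II in all 3 (6.57%).

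Cbx3 divided differently in its 2 sets. Set 1 overlapped 28.9% of the Cdk8 regions at Pol II (335 of 1161, interval 26.3 to 31.5%) and 9.95% of those away (439 of 4413, interval 9.10 to 10.9%), against 13.9% of all. Among strong regions of 2 or more windows that difference was small, with overlapping intervals. Set 1 lay at 38.5% at Pol II and 36.2% away in the ninth Cdk8 decile, and at 35.9% at Pol II and 30.9% away in the tenth. Set 2 overlapped 6.89% at Pol II (80 of 1161) and 5.73% away (253 of 4413), against 5.97% of all, and these intervals overlap. Both sets together overlapped 3.53% at Pol II (41) and 3.78% away (167), against 3.73% of all. Among regions of 2 or more windows, both sets lay at 4.99% at Pol II (36 of 721, interval 3.63 to 6.84%) and 8.72% away (115 of 1319, interval 7.31 to 10.4%). In the ninth Cdk8 decile of that class it was 5.50% at Pol II (12 of 218) and 20.4% away (40 of 196). In the eighth it was 2.25% at Pol II and 6.09% away, and in the tenth 6.28% at Pol II and 12.3% away, with overlapping intervals in both. The Cbx3 cells had no siRNA, so the treatment differs as well as the antibody.

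**Figure D4:**
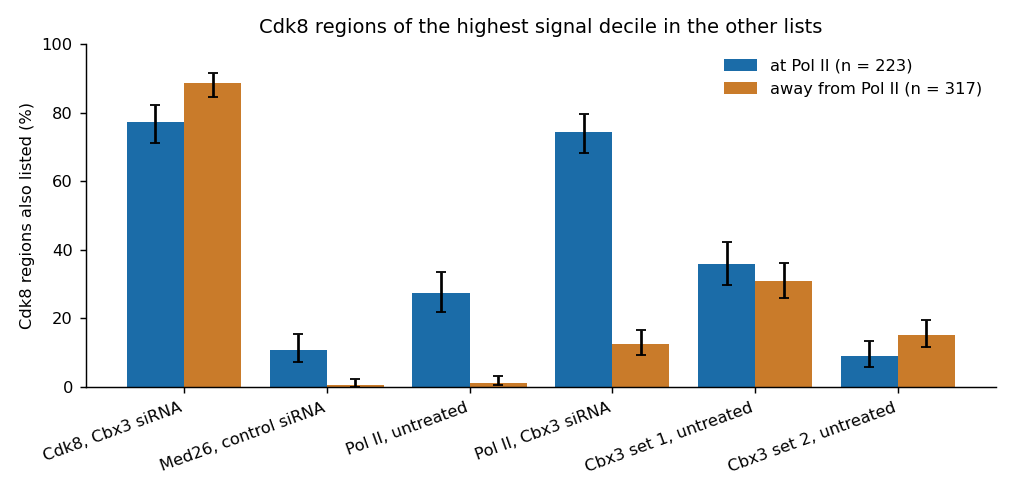
Percentage of Cdk8 regions of 2 or more windows in the highest decile of Cdk8 signal that are also in another list, for regions at Pol II (n = 223) and away from Pol II (n = 317); whiskers are 95% Wilson intervals. Cdk8 after Cbx3 siRNA is found at 77.1% at Pol II and 88.6% away, and Med26 after control siRNA at 10.8% at Pol II and 0.631% away.

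Single regions show the range. The longest Cdk8 region at Pol II, chr17:39979951-39983700 (mm9), had 3750 bp listed with a Cdk8 signal of 251 and a Pol II signal of 158, the highest of the Pol II list. Its neighbour chr17:39984051-39985850 had 1800 bp and the highest Cdk8 signal, 425, with a Pol II signal of 142. Both belong to 1 of 10 loci at which all 9 lists have windows, so they are not particular to Cdk8 or Pol II. The next longest was chr11:68875701-68876750, with 1050 bp of Cdk8 and a signal of 76.5. Its Pol II region had 100 bp and a signal of 11, at percentile 28.0 of the Pol II list. At chr3:19527951-19529150 the Cdk8 signal was 39.4 over 1050 bp and the Pol II signal 13.05, and at chr5:31190401-31191100 the Cdk8 signal was 83.2 over 700 bp. Over the 10 longest, the Pol II percentile ran between 28.0 and 100. All 10 were listed again for Cdk8 after Cbx3 siRNA, 3 held Med26 after control siRNA and 4 held untreated Pol II. All 10 are in the highest Cdk8 signal decile. Among its regions of 2 or more windows at Pol II, these shares were 77.1%, 10.8% and 27.4%. Both regions of the chromosome 17 locus are among those with Med26 and among those with untreated Pol II.

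The longest Cdk8 region away from Pol II, chr1:173031851-173033400, had 1400 bp listed and a signal of 55.4, and it stood side by side with a Pol II region of signal 8.16. The second, chr2:98506451-98507450, had 1000 bp, a signal of 303 and no Pol II within 1028 kb. Both Cbx3 sets covered its whole length, with a signal of 291644 in set 2. A pair on chromosome 11, chr11:68850401-68851550 and chr11:68853701-68854900, had 1000 bp each and signals of 59.9 and 59.6, at 7.45 and 4.10 kb from Pol II. The region chr13:23591901-23593100 had 850 bp and a signal of 49.02 at 29.2 kb from Pol II, and chr3:96304801-96305600 had 800 bp and a signal of 69.8 at 0.55 kb. Of the 10 longest, 8 were within 10 kb of Pol II. All 10 were listed again for Cdk8 after Cbx3 siRNA, 1 held Med26 after control siRNA, 2 held Pol II after Cbx3 siRNA and none held untreated Pol II. All 10 are in the highest Cdk8 signal decile. Among its regions of 2 or more windows away from Pol II, these shares were 88.6%, 0.631%, 12.6% and 1.26%.

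The strongest Pol II regions without Cdk8 had signals between 119 and 153. The first was chr4:131825651-131826450, with 800 bp and a signal of 153, and the next was chr11:87262201-87262700, with 500 bp and a signal of 142. The longest was chr19:5800101-5803900, with 3500 bp and a signal of 124. All 10 were in both other Pol II lists, and 9 held Med26 after control siRNA. Of all Pol II regions without Cdk8 in the highest Pol II decile, 98.8% were in the untreated Pol II list and 100% in that after Cbx3 siRNA. Med26 after control siRNA lay at 62.2% of them. The counts in the Pol II lists are thus at the level of that decile, and the Med26 count, 9 of 10, is above it. Cdk8 after Cbx3 siRNA was listed at 2 of the 10, over 50 bp on chromosome 19 and 100 bp at chr9:65043951-65044800.

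Across the genome the lists followed each other loosely. Cut into stretches of 1 Mb, 1633 of 2280 stretches with either list held both, 310 held Cdk8 alone and 337 Pol II alone. Spearman's rho of windows per stretch was 0.56, given as a description over stretches of 1 pair of libraries. It was 0.59 between Pol II windows and Cdk8 regions at Pol II, a number that Pol II itself limits, and 0.37 for Cdk8 regions away from Pol II. The fifth of stretches with most Pol II windows held 34.1% of the Cdk8 regions away from Pol II, and the fifth with fewest held 14.5%.

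Cdk8 was more concentrated than Pol II. The 6 fullest Cdk8 stretches held 745 of 9960 Cdk8 windows (7.48%), and the 6 fullest Pol II stretches held 2.74% of Pol II windows. The fullest Cdk8 stretch was also the fullest for Pol II: chromosome 13 between 23 and 24 Mb, with 184 Cdk8 and 598 Pol II windows. A pair of neighbours on the same chromosome was among the 6, between 21 and 22 Mb with 175 Cdk8 and 286 Pol II windows, and between 22 and 23 Mb with 96 Cdk8 and 110 Pol II windows. The other 3 were chromosome 17 between 39 and 40 Mb with 112 Cdk8 and 58 Pol II windows, chromosome 11 between 68 and 69 Mb with 109 Cdk8 and 160 Pol II windows, and chromosome 3 between 96 and 97 Mb with 69 Cdk8 and 389 Pol II windows. On chromosome 17, 2 of the 3 Cdk8 regions belong to the locus listed in all 9 libraries, and the other is a single window.

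Within the full stretches of chromosome 13, Cdk8 and Pol II regions were interspersed and seldom overlapped. Between 23 and 24 Mb there were 32 Cdk8 regions of 2 or more windows and 36 Pol II regions. Only 1 of these Cdk8 regions lay at Pol II, and the median distance of the others to Pol II was 11.3 kb. All 32 were listed again for Cdk8 after Cbx3 siRNA and none held Med26 after control siRNA. Their median Cdk8 percentile was 96.4, and these counts are near those of all regions of this class away from Pol II in the highest Cdk8 decile, where 88.6% were listed again and 0.631% held Med26. That set includes regions of these same stretches, so the comparison is partly of the regions with themselves. Between 21 and 22 Mb none of 31 such Cdk8 regions lay at Pol II, 30 were listed again, and none of 34 Pol II regions held Cdk8. Between 22 and 23 Mb none of 22 lay at Pol II and 21 were listed again. Similar counts held at chromosome 3, with 1 of 16 at Pol II and 13 listed again, and at chromosome 11, with 2 of 11 at Pol II and 10 listed again. The proximal region of mouse chromosome 13 is known for its large histone gene cluster, transcribed by Pol II, and for clusters of tRNA genes, transcribed by RNA polymerase III. Which genes the single regions lie at was not determined, since no mm9 annotation was used here.

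The 6 stretches held 103 of the 327 Cdk8 regions of 2 or more windows away from Pol II that were listed again after Cbx3 siRNA (31.5%). They held 8.19% of all 1319 regions of 2 or more windows away from Pol II and 0.832% of the 721 at Pol II. Without these stretches, a choice made after seeing the data, 5.62% of the Cdk8 regions away from Pol II were listed again in place of 7.82%, and 24.5% of those at Pol II in place of 24.8%.

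**Figure D5:**
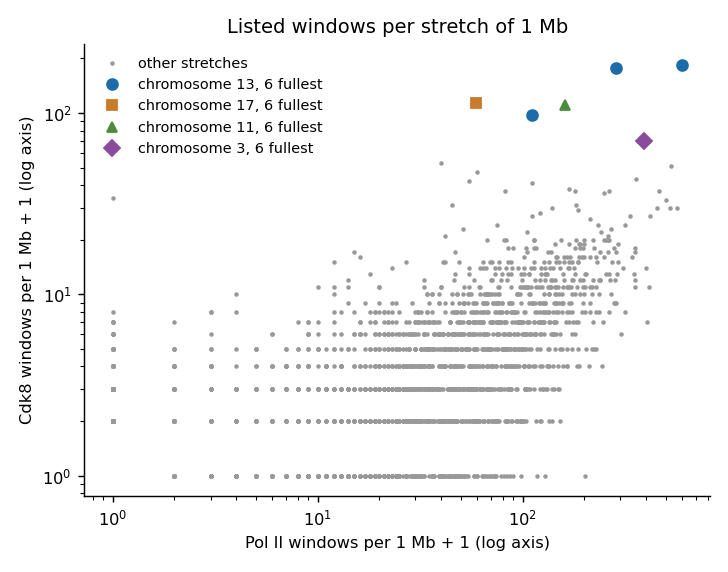
Cdk8 windows against Pol II windows in each stretch of 1 Mb with a window of either list, control siRNA, both on log axes after adding 1; coloured symbols are the 6 stretches with most Cdk8 windows. The 6 hold 69 to 184 Cdk8 windows and between 58 and 598 Pol II windows; the next stretches in the ranking hold 52 and 50 Cdk8 windows.

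By chromosome, the share of Cdk8 regions at Pol II among the autosomes was lowest on chromosome 13, with 12.8% (38 of 296, interval 9.50 to 17.1%), and highest on chromosome 11, with 27.9% (107 of 384, interval 23.6 to 32.6%). Chromosome 13 held 87 of the 327 repeated Cdk8 regions of 2 or more windows away from Pol II (26.6%) and 3.77% of the Pol II regions.

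Cdk8 was rare on chromosome X. It had 25 of 5574 Cdk8 regions (0.449%, interval 0.304 to 0.661%) and 396 of 16073 Pol II regions (2.46%, interval 2.24 to 2.72%). Cdk8 lay at 2 of 396 Pol II regions on chromosome X (0.505%, interval 0.139 to 1.82%) and at 1145 of 15677 on the autosomes (7.30%). Pol II regions on chromosome X were also weaker, with a median signal of 12.3 on X and 18.2 on the autosomes. In Pol II deciles 6 to 10, Cdk8 was listed at 0 of 85 regions on X (interval 0 to 4.32%) and at 11.3% of those on the autosomes (901 of 7952). Low shares on X were also found for Cdk8 after Cbx3 siRNA (0.640% of regions), Med26 after control siRNA (0.735%) and untreated Pol II (1.09%). Med26 after Cbx3 siRNA had 0.573%. The share was 2.25% for Pol II after Cbx3 siRNA, 5.58% for Cbx3 set 1 and 2.10% for Cbx3 set 2.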

How the data were processed

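The authors deposited, per sample, a list of 50 bp windows with a signal value. Alignment with Bowtie to mm9 is named in the submitters' processing notes. How windows were tested, at which threshold and with which input is not given in the sources used here. The 7 input libraries were not used. Lists hold only windows above a minimum, so depth is unknown and an absent window may lie just under it.

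From the lists, windows up to 200 bp apart were merged, the highest window gave each region its signal, and regions met when they shared at least 1 bp. Distances count the bases between regions. Deciles and percentiles are ranks within a list. The steps were tested on simulated data. The lists used here came from 1 library per antibody and arm, 2 for Cbx3. Nothing says that the libraries came from separate cultures.

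Regions named are the 10 longest by listed length at Pol II, the 10 longest away, the 10 Pol II regions of highest signal without Cdk8 and the 6 fullest stretches. The comparison, its members and these lists were chosen with earlier results of these data known. No mm9 annotation or genome was used, so regions carry no gene names and no sequence. Tools were matplotlib 3.10.9, scipy 1.17.1, pandas 2.3.3 and numpy 2.4.6 under Python 3.11.15. Positions follow mm9, with the first base as 1.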

Additional observations from a re-analysis of the deposited data

How the results depend on the processing

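Of 85 recomputed values, 54 stayed within the 95% interval of the reported value and 31 left it. In each of the settings run for both classes, regions of 2 or more windows lay at Pol II more often than those of 1 window. Counting distances up to 1 kb as at Pol II gave 28.9% of all Cdk8 regions, 47.7% of those of 2 or more windows, 18.0% of single windows and 11.5% of Pol II regions. Asking for 50% of the shorter region gave 32.6% for 2 or more windows. Cdk8 regions at or above the median signal gave 31.3% of all, 38.9% for 2 or more windows, 20.4% for 1 window, a median distance of 27.5 kb and rho -0.17. Pol II regions at or above the median signal gave 16.5%, 27.6% and 10.02% of the same classes, 11.2% of Pol II regions with Cdk8 and 77.0 kb. Merging touching windows only gave 6.52% of Pol II regions with Cdk8. Merging up to 1 kb gave 8.72%, and 38.2% of Cdk8 regions of 2 or more windows. Against untreated Pol II the Cdk8 shares were 6.93% of all, 12.2% for 2 or more windows and 3.90% for 1 window, with 4.73% of Pol II regions holding Cdk8 and 68.1 kb. The cause of these shifts was not tested beyond what each setting changes by construction.

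Among regions of 2 or more windows, 35.8% at Pol II and 24.8% away were listed after Cbx3 siRNA. Cbx3 set 1 lay at 33.7% at Pol II and 19.9% away, set 2 at 10.99% away, and both sets at 4.99% at Pol II and 8.72% away. Without the 6 fullest stretches 5.62% away were listed after Cbx3 siRNA. Removing regions at windows listed in all 9 libraries, as planned, was not possible, because no single window is in all 9. The 10 merged loci with windows of all 9 lists were removed in its place, as were the stretches that hold them, a choice made after seeing the data, and no value left its interval. No paired analysis was possible because each antibody and arm had 1 library. Depth, inputs and a second library would be needed to tell a missing window from a weak one.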

Other observations

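In windows listed for Cdk8 in both arms, the median log2 difference in signal, Cbx3 siRNA minus control siRNA, was 0.02 at Pol II (interval -0.04 to 0.09, 631 windows) and 0.12 away from it (interval 0.09 to 0.14, 1830 windows). Median signals at Pol II were 14.9 with Cbx3 siRNA and 16.0 with control siRNA, and away from Pol II 28.9 with Cbx3 siRNA and 26.8 with control siRNA. Here place was set for each window and not for the whole Cdk8 region. Windows outside the Pol II region thus count as away, even in Cdk8 regions that lie at Pol II. A window enters these medians only if it is listed in both arms, and each arm has 1 library.

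Cdk8 regions had another Cdk8 region within 10 kb in 14.0% of cases for 2 or more windows at Pol II (101 of 721, interval 11.7 to 16.7%) and 19.4% away (256 of 1319, interval 17.4 to 21.6%). For 1 window it was 16.1% at Pol II (71 of 440) and 7.24% away (224 of 3094).

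The 10 Cdk8 regions of highest signal, a set chosen after the values were seen, had signals between 92.7 and 425. Pol II lay at 2 of them, both at the chromosome 17 locus listed in all 9 libraries. Both Cbx3 sets lay at 9, Cdk8 after Cbx3 siRNA at 9 and Med26 after control siRNA at 2. The second highest, chr9:35112801-35113100, had a Cdk8 signal of 377 at 37.2 kb from Pol II, and the third, chr2:98502451-98503050, had 339 at 1032 kb. The inputs were not used, so signal that is not particular to the antibody was not tested.

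The RefSeq gene table for GRCm38.p6 lists 289 tRNA genes whose neighbour is another tRNA gene, 95 of them on chromosome 13, 48 on chromosome 6 and 39 on chromosome 11. Over 21 chromosomes, their number and that of repeated Cdk8 regions of 2 or more windows away from Pol II had a Spearman's rho of 0.70, and the number of Pol II regions had 0.63 with the same count. Chromosomes differ in size and gene number, this comparison was chosen after the values were seen, and no position was matched between the builds.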
